A study of Mus musculus with 12 samples.

Results

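Sele, Selp, Selplg, Icam1, Icam2 and Vcam1 encode the selectins, the main selectin ligand and the immunoglobulin-type adhesion molecules through which leukocytes attach to a vessel wall. The 6 genes were chosen by symbol, and all 6 of 6 were among the 15768 genes listed in both subpopulations of the study. RNA was sequenced from glomerular endothelial cells (GEC) of mice of the C57BL/6 strain that carry a Tek-Cre transgene and a tdTomato (tdT) reporter, so that cells in which the Tek promoter has driven Cre fluoresce red. The cells of digested glomeruli were sorted by fluorescence into a dim tdT and a bright tdT subpopulation, from 3 wild type (WT) mice and 3 Col4a5-/- mice, a model of Alport syndrome (AS), all at an age of 4 months. Each mouse gave 1 dim and 1 bright library, which makes 4 groups (WT-dim, AS-dim, WT-bright and AS-bright) of 3 libraries. The reporter was shared by all groups, and the study's methods name size, doublet and tdT gates but no gate against CD45. The study also stained the sorted subpopulations. It reports Ehd3, an endothelial protein, in most cells of both, and WT1, a podocyte protein, as virtually absent. The Cre records that Tek was active in a cell or its ancestors, so that the gate alone does not set a cell type.

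Leukocytes leave the blood in steps. E-selectin (Sele) and P-selectin (Selp) on activated endothelium catch passing leukocytes by sugar-bearing ligands, of which PSGL-1 (Selplg), carried by leukocytes, is the best known. The rolling cells then hold fast through integrins, with LFA-1 (Itgal with Itgb2) binding Icam1 and Icam2 and VLA-4 (Itga4 with Itgb1) binding Vcam1. Icam2 is carried by resting endothelium, whereas Sele, Icam1 and Vcam1 are known to be induced in endothelium by inflammatory cytokines through the transcription factor NF-kB.

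The sequences before the start of the 2 selectins and Icam1 are shown because inducible transcription of these genes runs through their promoters. RefSeq windows on GRCm38.p6 were held for 3 of the 6 genes, all on the plus strand, and the 250 bases before the RefSeq start are printed 5′ to 3′. Capitals mark the matches to GGGNNNNNCC, a general form of the NF-kB site, searched on both strands. The windows are chr1:164047984-164048233 for Sele, chr1:164115014-164115263 for Selp and chr9:21015690-21015939 for Icam1.
Sele: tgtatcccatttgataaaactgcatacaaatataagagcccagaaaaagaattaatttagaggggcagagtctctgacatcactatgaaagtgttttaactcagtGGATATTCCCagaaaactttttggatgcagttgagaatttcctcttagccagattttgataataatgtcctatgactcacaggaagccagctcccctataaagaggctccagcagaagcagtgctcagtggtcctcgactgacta
Selp: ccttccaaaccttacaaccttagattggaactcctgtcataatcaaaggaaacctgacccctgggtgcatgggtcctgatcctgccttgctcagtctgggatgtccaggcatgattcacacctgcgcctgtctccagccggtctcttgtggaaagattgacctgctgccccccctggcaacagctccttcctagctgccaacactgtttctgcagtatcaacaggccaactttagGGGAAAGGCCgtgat
Icam1: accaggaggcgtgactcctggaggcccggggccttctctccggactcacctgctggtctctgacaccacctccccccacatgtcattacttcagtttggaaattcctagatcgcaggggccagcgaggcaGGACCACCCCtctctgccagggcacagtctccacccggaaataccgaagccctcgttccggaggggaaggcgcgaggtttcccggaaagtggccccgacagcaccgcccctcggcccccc
Each held 1 match. That of Sele lay on the minus strand 145 to 136 bases before the start, that of Selp on the plus strand 15 to 6 bases before it, and that of Icam1 on the minus strand 120 to 111 bases before it. Such letters were common, since 45.8% of the 32851 RefSeq windows of the same length held at least 1 match. The narrower form GGGNNNTTCC was in none of the 3 windows and in 4.65% of all. A match describes the letters alone.

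Gene counts per library ran from 11440169 to 15074909. In AS-dim, Col4a5 had 51, 24 and 17 counts against 771, 439 and 877 in WT-dim (log2 fold change -4.69, standard error (SE) 0.45, adjusted p = 0.00983). The bright counts were 43, 104 and 55 for AS against 158, 69 and 78 for WT, which overlap (-0.60, SE 0.47, adjusted p = 0.495), so that Col4a5 did not pass as a check of the genotype in the bright libraries. The labelled cell type was checked against marker genes, as the sum of their CPM (the counts of a gene per 1000000 counts of its library, scaled by TMM over the 12 libraries). The 14 endothelial markers, all listed, summed to 11060 to 19395 CPM in the bright libraries. They summed to 741 to 1386 in WT-dim and 232 to 326 in AS-dim, and 8 of the 13 tested fell in AS-dim (7 called by edgeR's version 3 fit), against 6.41% of all genes. The 5 leukocyte markers summed to 5704 to 9771 CPM in WT-dim, 9850 to 10619 in AS-dim and 19.9 to 79.8 in bright, and in AS over WT in dim the test called 0 of 5 (3 at an unadjusted p under 0.05, 1 in DESeq2, 0 in the likelihood ratio test and the version 3 fit). No marker of either list stayed at 3 counts or fewer throughout a group. By these markers the bright libraries fitted their label, while the dim libraries, also labelled endothelial, carried little of the endothelial and much of the leukocyte marker RNA. In bulk RNA, fewer cells of a type and less RNA per cell cannot be told apart.

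**Figure D1:**
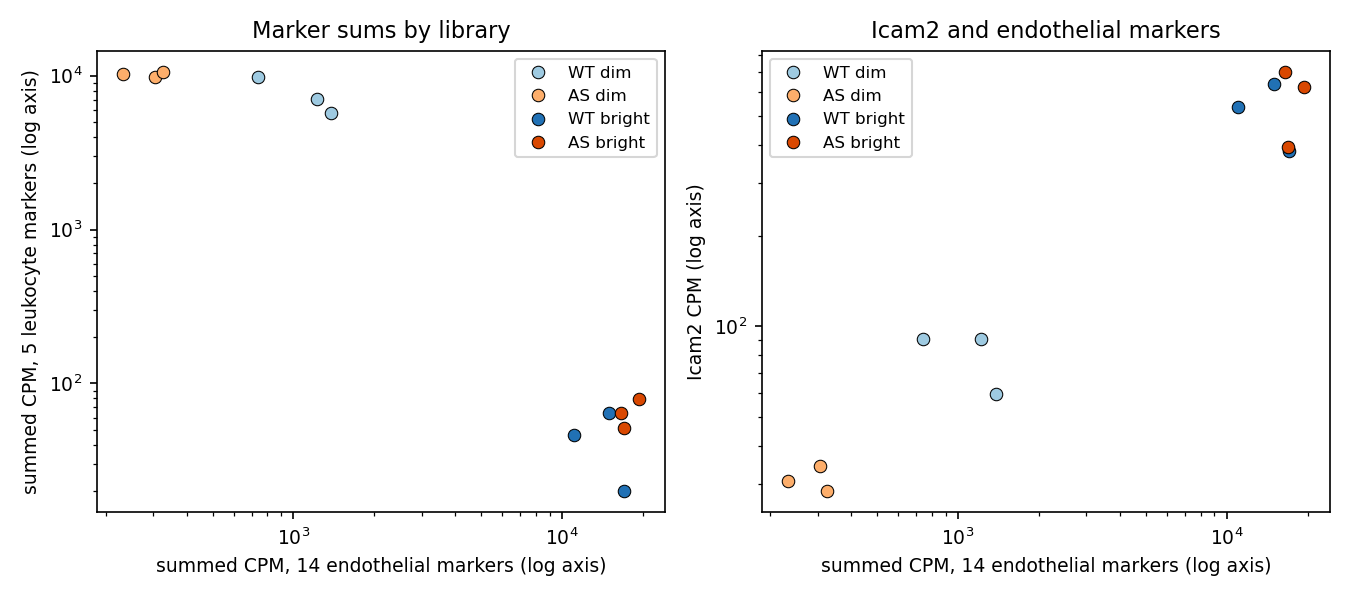
Left, summed CPM of 5 leukocyte markers against summed CPM of 14 endothelial markers, and right, Icam2 CPM against the same endothelial sum, 1 point per library, all axes logarithmic. The 6 bright libraries sit at 11060 to 19395 endothelial CPM and the 6 dim libraries at 232 to 1386, with the 3 AS-dim libraries lowest in both the endothelial sum and Icam2.

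Sele was the 1 gene of the 6 called higher in the bright GEC of AS mice. Selp, Vcam1 and Icam1 also lay higher there without overlap, but their tests did not pass. Sele (ENSMUSG00000026582, protein-coding, on the plus strand of chromosome 1 from 164048234 to 164057677 in GRCm38, with no annotated gene overlapping it) encodes E-selectin, which activated endothelium makes. It reached 40.2, 59.0 and 49.8 CPM in the WT-bright libraries and 152, 213 and 216 CPM in the AS-bright libraries. All AS-bright libraries lay above all WT-bright libraries, and the lowest of them was more than 2 times the highest WT value (152 against 59.0). The log2 fold change was 1.90 (SE 0.23, 95% interval 1.39 to 2.41), a 3.73-fold difference (adjusted p = 0.0291 by the quasi-likelihood test of edgeR, adjusted by Benjamini and Hochberg's method over 14396 genes).

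This made 1 of 6 members called in that comparison, where 0.452% of all genes tested were called. The call stood close to the threshold. With edgeR's version 3 quasi-likelihood fit no gene and no member passed (Sele adjusted p = 0.0517), although 2906 genes had an unadjusted p under 0.05 against 3145 in the fit used here, and DESeq2 called 1117 genes. It was also lost without WT-bright replicate 3 (0.0729), AS-bright replicate 1 (0.0722) or AS-bright replicate 3 (0.125), while the log2 fold change over the 6 fits that each left out a library stayed between 1.80 and 2.03. Other marker sums also differed between the genotypes in bright. That of macrophages and monocytes, 8 of 8 listed, was 146 to 220 CPM in WT and 233 to 333 in AS. Most of it was Cd14 (112 to 185 and 164 to 282, overlapping), while Cd68 had 8.68 to 23.3 and 7.13 to 13.6. Podocyte markers, 6 of 6 listed, summed to 965 to 1211 and 1345 to 1514. Proximal tubule markers, 8 of 8 listed, summed to 305 to 1588 and 47.6 to 343. The test called 0 of 5, 0 of 6 and 0 of 8 tested markers of these lists, with 3, 4 and 6 at an unadjusted p under 0.05. Adgre1, C1qa and C1qb were at 3 counts or fewer in each WT-bright library. The part of these cells in the Sele, Vcam1, Icam1 and Selp values in bright was not tested.

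In the dim libraries Sele was low in both genotypes. The counts were 19, 49 and 66 in WT-dim and 28, 15 and 60 in AS-dim, or 1.67, 4.14 and 5.56 CPM and 1.98, 1.24 and 4.79 CPM. The genotypes overlapped, and the log2 fold change of -0.54 had an interval from -2.01 to 0.93 (adjusted p = 0.643).

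Whether the AS effect on Sele differed between the subpopulations was tested as an interaction in 1 fit of the 12 libraries. The difference, bright minus dim, was 2.48 on the log2 scale (SE 0.60, adjusted p = 0.0376). Of the 6 members 2 were called in this test, Sele and Icam2, where 3.77% of all genes were called. The endothelial markers gave 10 of 14 called, all higher, with a median of 2.59 on the log2 scale. The version 3 fit called 8 of these markers. With the mouse as a block the same test called 877 genes instead of 569, and again 2 members. The version 3 fit called neither of the 2 (Sele adjusted p = 0.0646, Icam2 0.0502), with 3 members at an unadjusted p under 0.05 there and 3 members called by DESeq2. For Sele the call also ended with library sizes alone as the scaling (0.0548) and in 10 of the 12 fits that each left out a library, all but those without WT-dim replicate 1 or AS-dim replicate 3.

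Between subpopulations Sele was higher in bright than in dim in every mouse, by 24.1, 14.2 and 8.96 times in the WT mice and by 77.1, 171 and 45.0 times in the AS mice. The fitted log2 fold changes were 3.74 (SE 0.45, adjusted p = 0.000359) in WT and 6.17 (SE 0.38, adjusted p = 4.90e-07) in AS. The endothelial marker sum was also higher in bright than in dim. Expressed per 1000 CPM of endothelial markers of the same library, Sele was 3.48 ± 0.15 (SD, n = 3) in WT-bright and 11.1 ± 2.85 in AS-bright, without overlap. In dim it was 3.95 ± 3.18 in WT and 9.10 ± 5.34 in AS by that measure, with overlap.

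**Figure D2:**
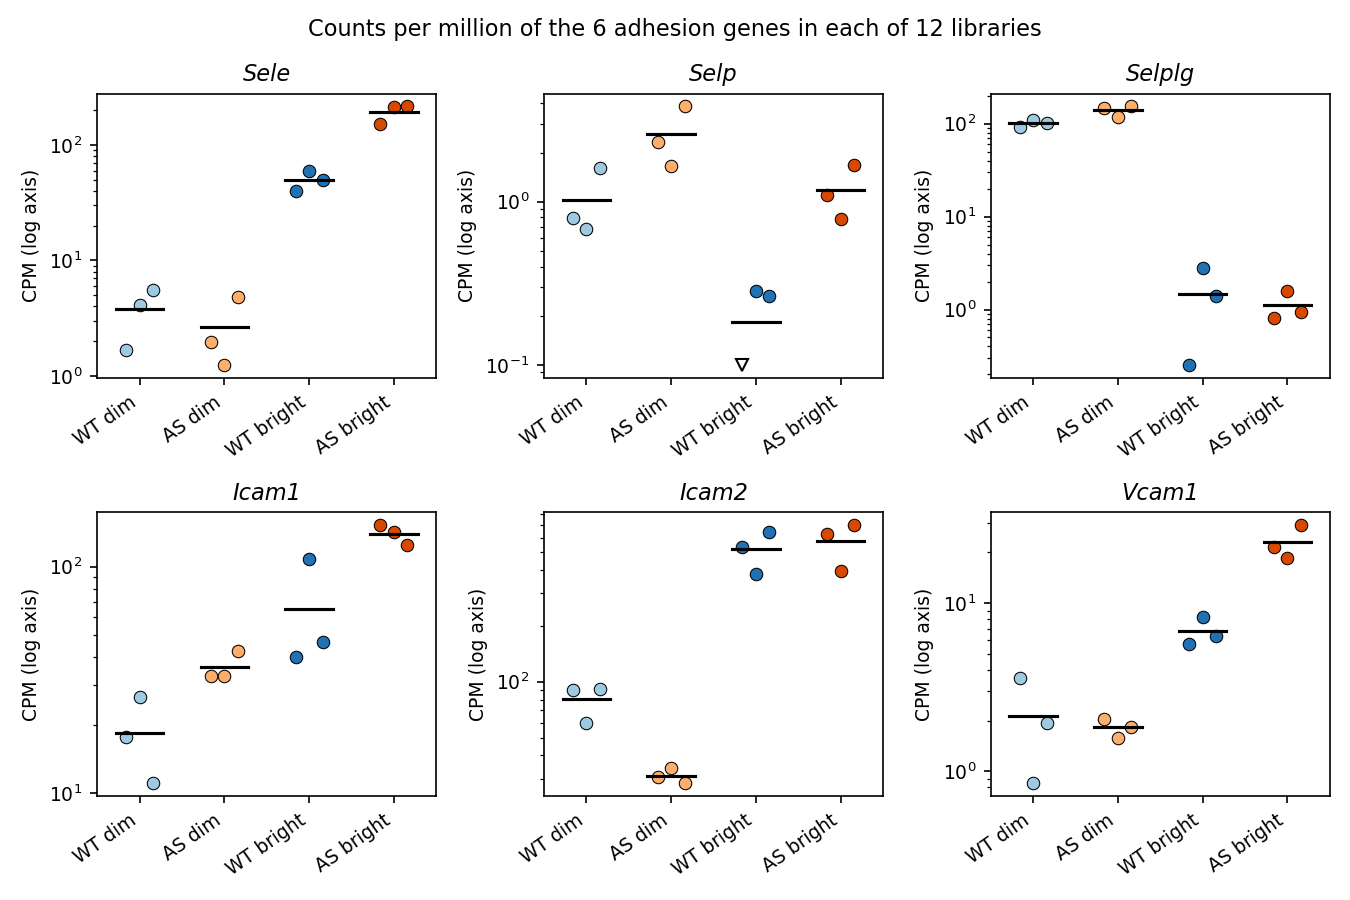
CPM of each gene in each of the 12 libraries (points, log axis), with the mean of each group of 3 as a bar; the open triangle marks a library with 0 counts of Selp, drawn at the foot of the axis. Sele, Vcam1 and Icam2 are highest in bright libraries, Selplg in dim libraries, and in the AS-bright libraries Sele, at 152 to 216 CPM, lies above all WT-bright libraries.

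Selp had low counts, from 0 to 48 per library. Selp (ENSMUSG00000026580, chromosome 1, 164115264 to 164150026, plus strand) encodes P-selectin, which endothelium and platelets store ready-made in granules. Its gene model is overlapped on the other strand by Gm16587 and Gm16548, and since the strand used for counting is not stated, reads of these genes cannot be told apart with certainty. WT-bright libraries had 0, 4 and 4 counts and AS-bright libraries 15, 12 and 23, where a count of 0 allows up to 0.19 CPM in WT-bright replicate 1. WT-dim libraries had 9, 8 and 19 counts and AS-dim libraries 33, 20 and 48.

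The AS libraries thus lay above the WT libraries without overlap in both subpopulations, but neither difference passed. The log2 fold change was 2.59 in bright (SE 0.78, adjusted p = 0.0978) and 1.31 in dim (SE 0.58, adjusted p = 0.194). Groups lay apart in the higher direction for 13.6% of all genes in bright and 15.0% in dim. The likelihood ratio test of edgeR gave an adjusted p of 0.00434 in bright, the 1 of 14 alternatives that passed, over a range of 0.00434 to 0.34. The version 3 fit gave 0.166, and DESeq2 set no adjusted p. The platelet markers, 5 of 6 listed in each table, summed to 3.35 to 5.0 CPM in WT-bright, 6.92 to 8.09 in AS-bright, 15.4 to 18.3 in WT-dim and 19.3 to 26.4 in AS-dim. The markers did not share 1 direction: in bright Itga2b went from 1.51 to 2.07 CPM in WT to 3.53 to 6.85 in AS, while Gp1bb was at 0.428 to 2.50 and 0.196 to 0.437. Among the platelet markers tested, 1 in bright and 3 in dim, the test called 0 (1 and 0 at an unadjusted p under 0.05, 0 and 0 in DESeq2 and the version 3 fit, 1 and 0 in the likelihood ratio test). Their part in the Selp values was not tested.

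Within AS mice Selp was lower in bright than in dim in every mouse, at 0.469, 0.472 and 0.437 times the dim value. The fit gave -1.16 (SE 0.48, adjusted p = 0.0651), and with the mouse as a block -1.14 (adjusted p = 0.0485). In WT mice the filter on low counts left Selp out of the test, so that other fits give its values. The fit of all 12 libraries gave -2.47 (adjusted p = 0.0369), while -2.41 without the filter (0.0577) and -2.64 without WT-dim replicate 2 (0.0622) did not pass.

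Selplg was found almost wholly in the dim libraries. Selplg (ENSMUSG00000048163, chromosome 5, 113818536 to 113832644, minus strand, overlapped by no other gene) encodes PSGL-1, the ligand that leukocytes present to selectins. It had 92.1, 108 and 103 CPM in WT-dim and 146, 118 and 153 CPM in AS-dim, against 0.25, 2.78 and 1.38 CPM in WT-bright and 0.80, 1.57 and 0.95 CPM in AS-bright. Every dim library lay far above every bright library, by 68.0-fold in WT (log2 fold change of bright over dim -6.09, SE 0.52, adjusted p = 6.03e-05) and 124-fold in AS (-6.95, SE 0.29, adjusted p = 4.76e-08). The leukocyte marker sums, given above, were likewise higher in all dim libraries.

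The AS-dim libraries lay above the WT-dim libraries for Selplg without overlap, but by 1.35-fold (0.43, SE 0.19, adjusted p = 0.193). In bright the genotypes overlapped at 4 to 39 counts (-0.42, SE 0.70, adjusted p = 0.771). The interaction was -0.82 with an interval from -2.24 to 0.60.

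Icam2 was the most abundant of the 6 genes in bright GEC, and it fell in the dim libraries of AS mice. Icam2 (ENSMUSG00000001029, chromosome 11, 106377656 to 106388075, minus strand, overlapped by no other gene) is a constitutive endothelial ligand of LFA-1. It had 536, 383 and 639 CPM in WT-bright and 626, 394 and 702 CPM in AS-bright, which overlap (0.06, interval -0.54 to 0.67, adjusted p = 0.915). The interval leaves no room for a change of Icam2 as large as that fitted for Sele in the same libraries.

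In dim, Icam2 had 90.5, 59.7 and 90.8 CPM in WT and 30.6, 34.2 and 28.2 CPM in AS. All AS-dim libraries lay below all WT-dim libraries, with a log2 fold change of -1.41 (SE 0.25, 95% interval -1.97 to -0.84), which is 2.65-fold lower (adjusted p = 0.0218). It was the 1 of 6 members called in AS over WT in dim, where 8.62% of all genes were called and the groups of 16.2% lay apart in the lower direction. The call was lost without AS-dim replicate 1 (adjusted p = 0.117), replicate 2 (0.0523) or replicate 3 (0.116).

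The endothelial marker sum fell in the same dim libraries, from 741 to 1386 CPM in WT to 232 to 326 CPM in AS. Per 1000 CPM of these markers, Icam2 was 79.9 ± 40.0 (SD, n = 3) in WT-dim and 110 ± 22.6 in AS-dim, with overlapping ranges of 43.1 to 122 and 86.7 to 132. By that measure the mean of Icam2 was higher in AS-dim than in WT-dim, within the spread of the libraries. The exact permutation test (two-sided) of 3 against 3 libraries cannot go below p = 0.1.

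The interaction for Icam2 was 1.52 (SE 0.37, adjusted p = 0.0388). Besides the version 3 fit, edgeR's likelihood ratio test ended this call (0.0896), as did 9 of the 12 fits that each left out a library, all but those without WT-dim replicate 2, WT-bright replicate 3 or AS-bright replicate 2. Bright exceeded dim in every mouse, by 5.92, 6.41 and 7.04 times in WT and 20.5, 11.5 and 24.8 times in AS. The log2 fold changes were 2.75 (SE 0.30, adjusted p = 0.000213) in WT and 4.20 (SE 0.25, adjusted p = 4.10e-07) in AS.

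Icam1 was higher in AS than in WT in both subpopulations, without overlap and without passing the test in either. Icam1 (ENSMUSG00000037405, chromosome 9, 21015985 to 21028817, plus strand) encodes the inducible ligand of LFA-1 and Mac-1, and its end is overlapped on the other strand by Gm47079. The WT-bright libraries had 40.0, 108 and 46.3 CPM and the AS-bright libraries 153, 142 and 125 CPM. WT-bright replicate 2 was more than 2 times as high as the other WT-bright libraries.

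The log2 fold change of Icam1 in bright was 1.06 (SE 0.33, interval 0.32 to 1.79, adjusted p = 0.119). Without WT-bright replicate 2 it was 1.61 (adjusted p = 0.0365), and DESeq2 gave 1.04 (adjusted p = 0.0407). In dim, Icam1 had 17.6, 26.7 and 11 CPM in WT and 32.8, 33.1 and 42.6 CPM in AS (0.93, SE 0.35, adjusted p = 0.137).

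The 2 effects of AS on Icam1 differed by 0.14 with an interval from -1.0 to 1.28 (adjusted p = 0.923), and a difference within that interval was not detectable here. Bright exceeded dim by 2.27, 4.06 and 4.19 times in the WT mice and 4.66, 4.29 and 2.94 times in the AS mice, with log2 fold changes of 1.85 (SE 0.47, adjusted p = 0.0191) and 1.94 (SE 0.19, adjusted p = 1.35e-05). The WT call was lost without WT-dim replicate 3 (0.0562) or WT-bright replicate 2 (0.0801). In the dim libraries the macrophage and monocyte marker sum was also higher in AS, at 9838 to 12770 CPM against 4597 to 8622, and its part in the Icam1 values was not tested.

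Vcam1, like Sele, lay higher in AS-bright than in WT-bright without overlap, but the difference did not pass. Vcam1 (ENSMUSG00000027962, chromosome 3, 116109949 to 116129688, minus strand) encodes the ligand of VLA-4, and Gm43109 overlaps it on the other strand. It had 5.69, 8.27 and 6.38 CPM in WT-bright and 21.6, 18.5 and 29.1 CPM in AS-bright. All AS-bright libraries lay above all WT-bright libraries, by 3.25-fold (1.70, SE 0.32, interval 0.99 to 2.41), and the adjusted p of 0.0517 missed the threshold. It passed in DESeq2 (7.87e-05), the likelihood ratio test (0.00236), the fit of all 12 libraries (0.0419) and without WT-bright replicate 1 (0.0452), WT-bright replicate 2 (0.0452) or AS-bright replicate 2 (0.0403), over a range of 7.87e-05 to 0.249 across the 14 alternatives.

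The dim counts of Vcam1 were 41, 10 and 23 for WT against 29, 19 and 23 for AS, which overlap (-0.24, interval -1.58 to 1.10, adjusted p = 0.834). The interaction of 1.98 (SE 0.66) did not pass (adjusted p = 0.12) and did in DESeq2 (0.0397). Bright exceeded dim in every mouse, by 1.58, 9.78 and 3.29 times in WT and 10.6, 11.8 and 15.9 times in AS. The AS value passed (3.64, SE 0.34, adjusted p = 9.99e-06), and the WT value missed (1.72, SE 0.56, adjusted p = 0.0522). The WT value passed with library sizes alone (0.0458), DESeq2 (0.0338), the likelihood ratio test (0.0204), all 12 libraries in 1 fit (0.0123) and without WT-dim replicate 1 (0.0383), over a range of 0.0123 to 0.142 across the 14 alternatives.

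**Figure D3:**
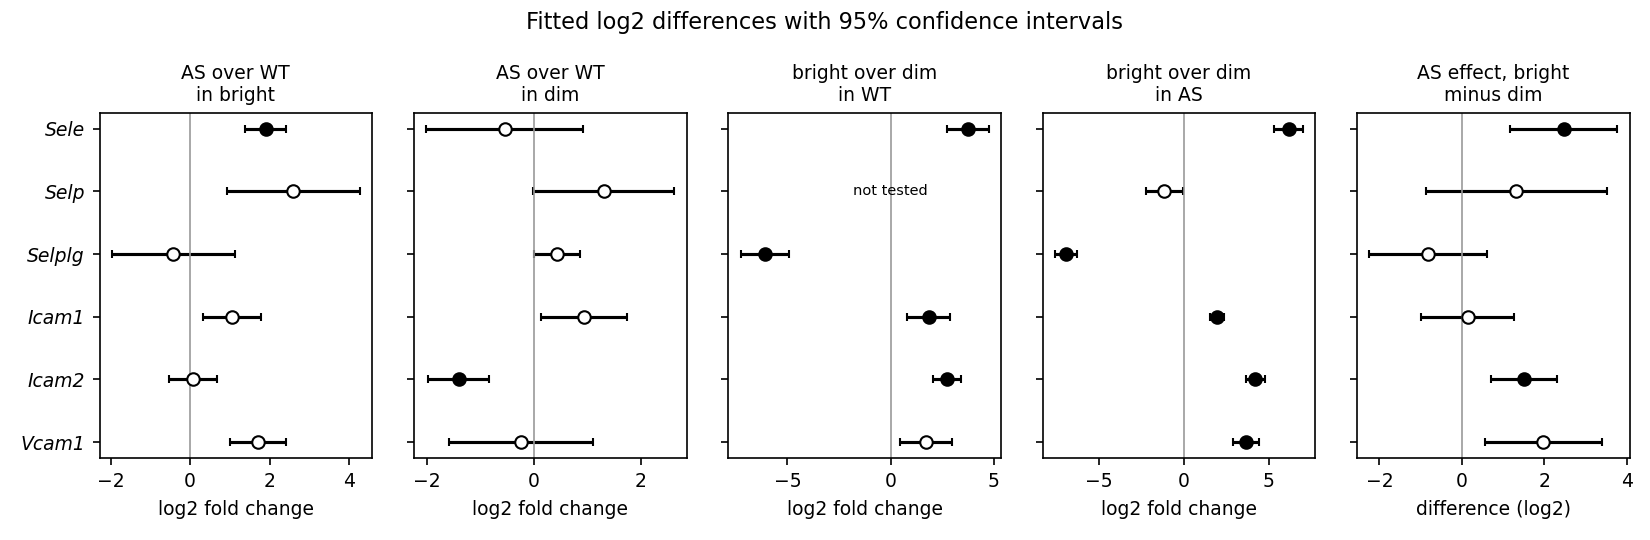
Log2 fold change of each gene in the 4 comparisons, and the difference of the AS effects in the last panel, with 95% confidence intervals of edgeR's quasi-likelihood fit; filled points passed an adjusted p of 0.05. Sele is the filled point among 6 in AS over WT in bright and Icam2 that in AS over WT in dim, while 4 of 5 and 5 of 6 points are filled for bright over dim.

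By subpopulation, 4 of the 5 members tested were called in bright over dim in WT mice, 3 higher (Sele, Icam1, Icam2) and 1 lower (Selplg), where 25.3% of all genes were called. In AS mice 5 of 6 were called, the same 4 and Vcam1, where 55.1% of all genes were called. With the mouse as a block 6 of 6 were called in AS, Selp being the addition. Most genes of the AS comparison thus differed between subpopulations, so that the count of members is to be read against a high background. In AS over WT in bright, the groups of 4 of 6 members (Sele, Selp, Vcam1, Icam1) lay apart in the higher direction and none in the lower, against 13.6% and 10.9% of all genes. In dim, 3 of 6 (Selp, Selplg, Icam1) lay apart in the higher and 1 (Icam2) in the lower direction, against 15.0% and 16.2%. The members' median log2 fold change in bright was 1.38, beside -0.03 over all genes, and in dim it was 0.09 beside -0.02.

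Per kilobase of exon, the scale on which genes can be compared, Icam2 led in the WT-dim, WT-bright and AS-bright groups. In WT-bright, Icam2 had 273 ± 67.6 CPM per kb (SD, n = 3), followed by Sele with 17.1 ± 3.23 and Icam1 with 14.9 ± 8.67, whose ranges overlapped. In AS-bright the order was Icam2 with 302 ± 84.1, Sele with 66.5 ± 12.2, Icam1 with 32.1 ± 3.20 and Vcam1 with 2.6 ± 0.61, with no overlap between these neighbours. Sele took 5.58% of the summed level of the 6 genes in WT-bright and 16.5% in AS-bright, and Icam2 89.2% and 74.8%. Selp and Selplg, both under 1 CPM per kb in bright, overlapped each other in AS-bright.

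In WT-dim the order was Icam2 with 42.2 ± 9.38 CPM per kb, Selplg with 23.6 ± 1.93, Icam1 with 4.23 ± 1.80 and Sele with 1.30 ± 0.68. In AS-dim Selplg came first with 32.5 ± 4.29, before Icam2 with 16.3 ± 1.58 and Icam1 with 8.29 ± 1.28. These neighbours did not overlap. Vcam1 and Selp overlapped in WT-dim, as did Sele and Selp in AS-dim.

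**Figure D4:**
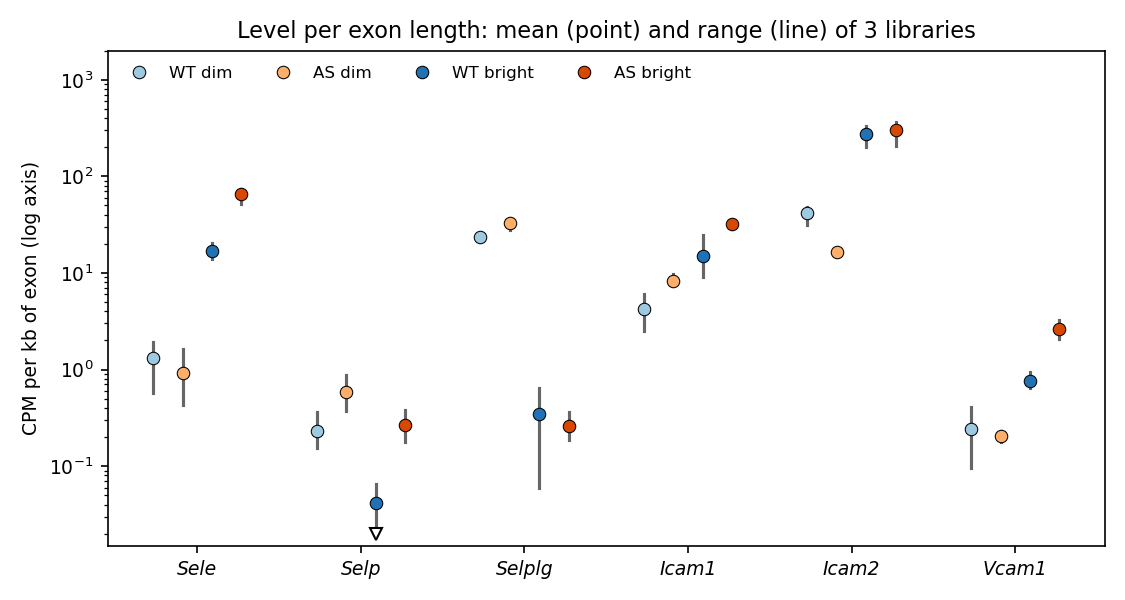
Level of each gene as CPM per kb of exon (log axis) in the 4 groups, with points for means and lines for the range of 3 libraries; the open triangle marks a range that reaches 0. Icam2 is at 273 and 302 CPM per kb in the bright groups, while Selplg, at 23.6 and 32.5 in dim and under 1 in bright, and Selp, at 0.23 and 0.59 in dim and 0.041 and 0.27 in bright, have higher means in dim.

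Of the 10 genes of integrin counter-receptors, 7 were listed in both tables. In bright over dim, 4 of the 6 tested in WT mice fell and 2 rose, against 11.5% lower and 13.8% higher of all genes. In AS mice 5 of 7 fell and 2 rose, against 26.5% and 28.6%. Itgal and Itgb2, the subunits of LFA-1, were 131-fold and 220-fold lower in bright than in dim in WT mice (log2 fold changes -7.04 and -7.78). Itgb1, the beta chain of VLA-4 which endothelium also makes, and Itga9, whose integrin binds Vcam1, were higher by 2.07-fold and 5.87-fold. In AS over WT none of 6 passed in bright, where 2 had an unadjusted p under 0.05, DESeq2 called 2 and the likelihood ratio test and version 3 fit 0. In dim, Itga4 (0.77, adjusted p = 0.0491) and Itgb7 (0.89, adjusted p = 0.0432) were the 2 of 9 that passed, both higher, where 2.21% of all genes were called higher. The likelihood ratio test and the version 3 fit called 0 of the 9, DESeq2 3, and 4 had an unadjusted p under 0.05. The leukocyte marker sum was 5704 to 9771 CPM in WT-dim and 9850 to 10619 in AS-dim, and its part in these values was not tested.

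Of the genes that make or carry selectin ligands, 1 of 16 tested rose in AS over WT in bright and none fell, against 0.188% and 0.264% of all genes. This was Cd34, a sialomucin of endothelium, at 2.26-fold (1.18, SE 0.20, adjusted p = 0.0413). The version 3 fit called 0 of the 16. In dim 2 of 17 rose (Cd44, St3gal4) and 2 fell (Podxl at -1.93 and Fut9 at -4.60), against 2.21% and 6.41% of all genes, and the version 3 fit called 2 of the 17. Podxl, podocalyxin, is also on the podocyte marker list, whose sum was 538 to 561 CPM in AS-dim and 622 to 1234 in WT-dim. Fut9 is a fucosyltransferase of the Lewis x type; the proximal tubule markers summed to 10.5 to 289 CPM in AS-dim and 931 to 3838 in WT-dim. The part of these other cell types was not tested. The interaction passed for Cd34 (3.38, adjusted p = 0.0249) and Podxl (2.15, adjusted p = 0.00432).

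Other endothelial adhesion and transmigration molecules gave no call in AS over WT in bright among 18 tested, where 7 had an unadjusted p under 0.05, DESeq2 called 2 and the likelihood ratio test and version 3 fit 0. In dim 4 of 17 fell and none rose, against 6.41% and 2.21% of all genes, with Jam3 (-2.58), Esam (-2.36), Cx3cl1 (-2.14) and Cdh5 (-1.99). The last 2 were named after their values were seen. Esam and Cdh5 are among the endothelial markers that fell there as a list. In the interaction 7 of 17 passed (6 in the version 3 fit), all higher, where 2.96% of all genes were called higher, among them Cx3cl1 (2.98), an adhesive membrane-bound chemokine, and Jam3 (2.87), a junction protein. Of the endothelial markers, 10 of 14 were called higher in that test, with a median of 2.59 beside 1.60 for this list. In bright over dim, 10 of 17 rose and 4 fell in WT mice, against 13.8% and 11.5% of all genes, and 11 of 17 rose and 4 fell in AS mice, against 28.6% and 26.5%.

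Of 28 inducers and members of the NF-kB pathway, 3 rose in AS over WT in bright and none fell, against 0.188% and 0.264% of all genes. Among these are Apln and Aplnr, which the study already reports as raised in AS-bright, so that the share is not independent of its result. Aplnr, the apelin receptor, rose 16.6-fold (4.05, SE 0.51, adjusted p = 0.0291), its ligand Apln 5.18-fold (2.37, SE 0.42, adjusted p = 0.0422) and the cytokine Il1a, named after its value was seen, by 1.81 on the log2 scale (SE 0.29, adjusted p = 0.0345). The version 3 fit called none of the 28, DESeq2 9, and 15 had an unadjusted p under 0.05. The macrophage and monocyte marker sum was 146 to 220 CPM in WT-bright and 233 to 333 in AS-bright, with 0 of 5 tested markers called. Its part in these bright values was not tested. In dim 3 of 26 rose, against 2.21% of all genes, with the TNF receptor Tnfrsf1a at 1.28 and the IL-4 receptor Il4ra at 0.90 the highest, while the version 3 fit called 2 and the likelihood ratio test 0. The list's median was 0.62 in bright and 0.47 in dim, beside -0.03 and -0.02 over all genes.

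None of 12 tested NF-kB-inducible chemokines and factors passed in AS over WT in bright, where 6 had an unadjusted p under 0.05, DESeq2 called 2 and the other tests 0. In dim 1 of 15 rose, against 2.21% of all genes, the monocyte chemokine Ccl7 (4.32, SE 0.83, adjusted p = 0.0233). Of the macrophage and monocyte markers, 3 of 8 rose in the same libraries (2 called by the version 3 fit), with sums of 4597 to 8622 CPM in WT-dim and 9838 to 12770 in AS-dim, and their part in the dim values of Ccl7, Tnfrsf1a and Il4ra was not tested. Of the sheddases and release genes, which cut adhesion molecules from the surface or free stored granules, none of 10 passed in bright, where 4 had an unadjusted p under 0.05, DESeq2 called 2, the likelihood ratio test 1 and the version 3 fit 0. In dim 1 of 11 fell, close to the 6.41% of all genes, the granule membrane protein Cd63 (-3.07, SE 0.56, adjusted p = 0.0233).

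**Figure D5:**
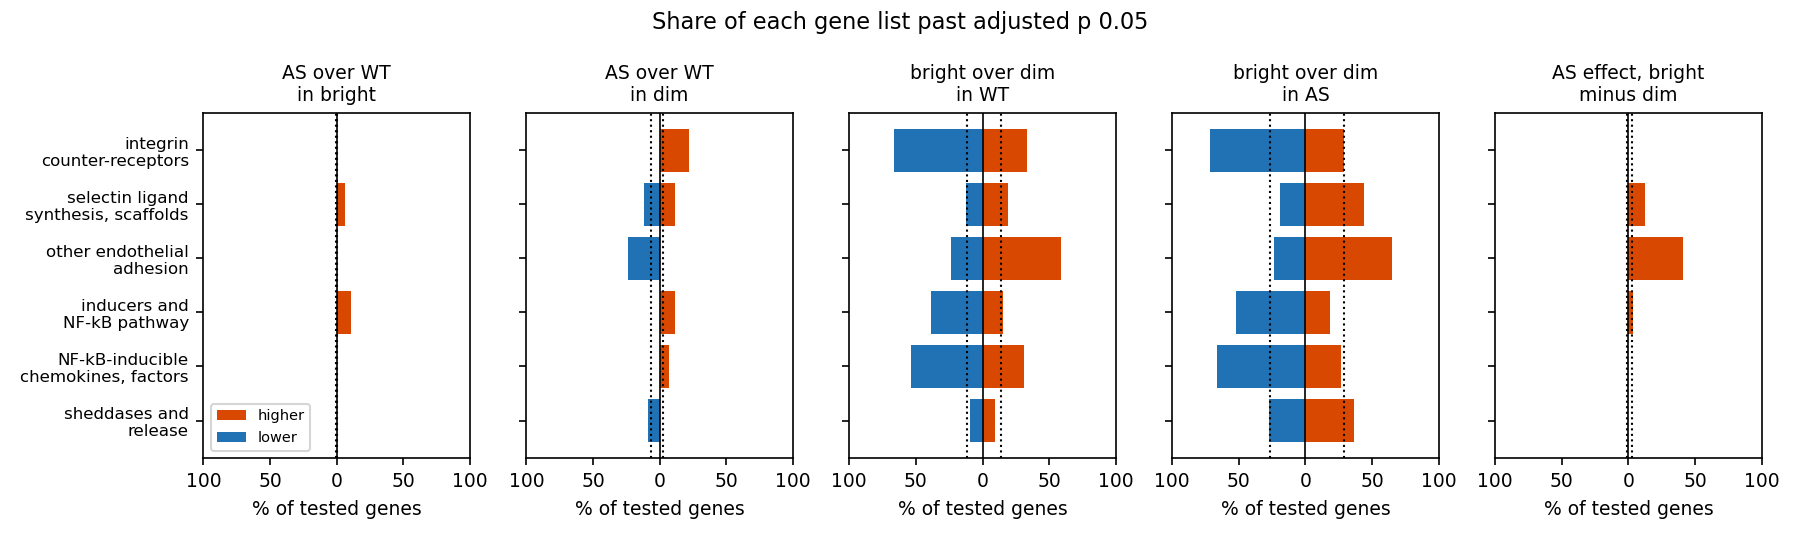
Share of the tested genes of 6 lists that passed an adjusted p of 0.05, to the right for higher and to the left for lower, with dotted lines at the shares over all genes. The integrin list leans to dim in bright over dim (4 of 6 lower in WT, 5 of 7 in AS), and 7 of 17 genes of the other endothelial adhesion list are higher in the difference of the AS effects.

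Over the 12 libraries and 15084 genes, the genes whose log2 CPM were most like each member's were also taken, as a description in which the points share library and subpopulation. For Sele these were Tlr3, Ptgs1 and Rell1 (Pearson's r 0.990 to 0.987), for Icam2 Lmcd1, Cavin1 and Sgce (0.993 to 0.992) and for Selplg Dusp2, Stap1 and Syne3 (0.994 to 0.991). For Icam1 they were Adam15, Pced1b and Sipa1 (0.978 to 0.969), for Vcam1 Ksr1, Cyb5r3 and Ppm1f (0.974 to 0.966), and for Selp Actg1, Abcg1 and Gak, at the lowest values of 0.940 to 0.938.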

How the data were processed

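RNA of 12 libraries was analysed from 2 deposited tables, one for dim and one for bright GEC. The authors aligned reads with STAR 2.6.0c to GRCm38.p5 with Gencode M16 and deposited the raw count of reads per gene, and they filtered the gene list by a rule that is not stated. The authors also deposited RPKM, used here for no test. The authors' edgeR comparison of AS with WT is also in the tables, as log2 fold change and logCPM, a likelihood ratio score, and p-value and FDR columns that the authors deposited, and none of these was used. Tools and builds come from the submitters' processing notes and the methods. The kit is stranded, but the strand counted is not given in the sources used here.

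Gene counts were 11440169 to 15074909 per library, and the number of counts limits the precision of low genes such as Selp. ERCC spike-ins (0.0286% to 0.282% of counts) were left out. The limit that a count of 0 allows was set at 3 counts and covers counting error only. Replicates are separate mice by the labels. The 12 pairs of replicates differed by 29.5 to 104 per degree of freedom in a chi-square test of their counts, so that none was the same library.

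Counts were tested with edgeR 4.0.16 in R 4.3.3 by the quasi-likelihood test after TMM scaling and filterByExpr, with p-values adjusted by Benjamini and Hochberg's method over every gene in the fit and a threshold of 0.05. AS over WT used the 6 libraries of a table, bright over dim the genes in both tables, and the interaction all 12 libraries. The quasi-likelihood fit is the package's version 4 form (legacy=FALSE). The package's default, its version 3 form, was run first, and the choice between them was made after the results of both had been seen, to follow the processing of an earlier analysis of these data. Where they differ in the call of a member, the adjusted p of both is given, and where they differ in the count of a gene list described, both counts. The members, the gene lists and the tests were chosen with earlier results of these data known. CPM and CPM per kb of exon used 1 TMM scaling of the 12 libraries and exon lengths of Gencode M21. Named beside the members were Col4a5, the markers, the 2 highest and 2 lowest genes past the threshold of each of 6 lists, and the 3 genes most like each member by Pearson's r. Of the genes that this rule names, 1 is not reported here.

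The labels give the mouse of each library, which pairs the dim and bright libraries. Deviations from group means correlated at 0.10 to 0.27 within a WT mouse and 0.08 to 0.39 within an AS mouse, against -0.21 to 0.01 and -0.29 to 0.19 between mice.

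The tests were also run on simulated data with known changes. Alternatives were RLE scaling, library sizes alone, no filter, DESeq2 1.42.0, the likelihood ratio test, a replicate block, all 12 libraries in 1 fit and each library left out. The version 3 fit and values per endothelial marker were added after the data had been seen.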

Additional observations from a re-analysis of the deposited data

Results flagged for a closer look

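Sele and Icam2 stood out because the interaction test over all 12 libraries called their AS effects different in bright and dim GEC. The version 3 fit called neither (adjusted p = 0.0646 and 0.0502). The calls ended in 10 and 9 of the 12 fits that each left out a library. Of the 14 endothelial markers, 10 were called higher in the same test (8 called by the version 3 fit), with a median of 2.59. For Sele the AS effect in bright minus that in dim was 2.48 on the log2 scale, with a rise in bright (1.90) and a lower, overlapping value in dim (-0.54). For Icam2 the difference was 1.52, with 0.06 in bright and -1.41 in dim. The median endothelial marker sum was 306 CPM in AS-dim against 1220 CPM in WT-dim. Per 1000 CPM of these markers, Icam2 was 79.9 ± 40.0 (SD, n = 3) in WT-dim and 110 ± 22.6 in AS-dim, and Sele 3.95 ± 3.18 and 9.10 ± 5.34, both with overlap. Groups of 3 libraries were too small for a test of single outlying libraries.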

How the results depend on the processing

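Of 436 values of members under the alternatives that refitted the counts, 375 kept their direction and side of the threshold, 33 lost and 18 gained a call, and 10 turned direction. Calls of AS over WT in bright (65 genes, 1 member) became 39 genes without the filter, 1117 genes and 3 members with DESeq2, 897 and 3 with the likelihood ratio test, 139 and 2 with all 12 libraries in 1 fit, and 0 and 0 with the version 3 fit. Leaving out a library gave 0 to 281 genes and 0 to 3 members, with 1812 to 3842 genes at an unadjusted p under 0.05. In dim (1262 genes, 1 member) DESeq2 gave 2213, all 12 libraries 2105 and the version 3 fit 582 genes, and leaving out a library 0 to 1823 genes and 0 to 1 members. For the interaction (569 genes, 2 members) DESeq2 gave 1186 genes, the likelihood ratio test 1092 genes and 1 member, library sizes alone 1 member, the version 3 fit 0 members, and leaving out a library 252 to 856 genes and 0 to 1 members. Leaving out a library left bright over dim at 2533 to 3436 genes and 3 to 5 members in WT and 6652 to 7488 genes and 5 to 6 members in AS. The cause of these changes was not tested. Library sizes alone moved the median interaction of all genes from 0.13 to -0.03.

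The replicate block paired libraries of 1 mouse for bright over dim and the interaction (877 genes), where among the members it changed no call but that of Selp. It gave 4442 genes instead of 3601 for bright over dim in WT and 7756 instead of 7743 in AS. For AS over WT equal numbers are different mice, whose deviations correlated at -0.115, -0.085 and 0.049 in dim and -0.083, -0.151 and 0.124 in bright, and the block gave 16 genes in bright and 494 genes and 0 members in dim (Icam2 adjusted p = 0.0554).

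Among the fits that each left out a library, the direction turned only for values that had not passed, with AS over WT in bright of -0.91 to 0.38 for Selplg and -0.13 to 0.28 for Icam2, AS over WT in dim of -0.66 to 0.37 for Vcam1, and interactions of -0.22 to 0.73 for Icam1 and -1.33 to 0.0021 for Selplg. Per endothelial marker CPM, the log2 AS over WT was 1.20 for Sele, 1.67 for Vcam1 and 0.46 for Icam2 in dim and -0.22 for Icam2 in bright; of these, Icam2 in dim had been called. The narrower motif was in 0 instead of 3 promoters. Depth limits Selp and, in dim, Vcam1 and Sele.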

Other observations

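The arterial and venous endothelial markers were set beside the selectins, since E- and P-selectin are known from venules. Their summed CPM was 719 to 1165 in WT-bright and 1021 to 1198 in AS-bright, which overlap, and 102 to 129 in WT-dim and 40.4 to 46.3 in AS-dim. The sum pools both kinds, so that it does not show the venous genes alone. Its largest part in bright was Efnb2 (362.8 to 688.2 in WT, 553 to 610.7 in AS). Ephb4 (117.2 to 194.3 and 210.7 to 313.3) and Nr2f2 (10.39 to 17.96 and 18.65 to 21.67) lay higher in AS-bright without overlap. Vwf lay lower (1.835 to 2.28 and 1.019 to 1.53), and the other listed genes overlapped. The relation of these genes to Sele and Selp was not tested. In AS over WT in bright, 0 of 8 passed edgeR's quasi-likelihood test, with 1 of 8 at an unadjusted p under 0.05, and DESeq2, edgeR's likelihood ratio test and edgeR's version 3 fit each called 0. In dim, 4 of 8 fell, against 6.41% of all genes, and the version 3 fit called 3.

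Per 1000 CPM of endothelial markers, Icam1 was 16.2 ± 2.66 (SD, n = 3) in WT-dim and 127 ± 17.0 in AS-dim, Selplg 97.4 ± 35.6 and 495 ± 122, Selp 1.10 ± 0.92 and 9.08 ± 3.28, and Vcam1 2.06 ± 1.26 and 6.54 ± 2.0, all 4 without overlap, while Sele and Icam2, given above, overlapped. The ratio rises by arithmetic wherever the endothelial sum falls, so that it is given as a value.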
